A study of Mus musculus with 4 samples.

Results

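Immune checkpoint genes are described here in mouse lung tumours: 10 genes chosen by symbol, of the 32289 features in the deposited tables. They are the receptors Pdcd1 (PD-1), Ctla4, Lag3, Tigit and Havcr2 (TIM-3), and the ligands Cd274 (PD-L1), Pdcd1lg2 (PD-L2), Cd80, Cd86 and Nectin2. All 10 matched a feature by symbol and by Ensembl identifier. The study asked what loss of Hnf4a, a transcription factor of gut-like epithelial identity, does to lung adenocarcinoma cells. The alleles carried by all mice included p53frt, Rosa-FSF-CreERT2 and Hnf4aflox. Tumours were started with Adenoviral mSPC-FlpO, in which a surfactant protein C promoter drives the FlpO recombinase that removes p53 and makes CreERT2 available. Tamoxifen, which activates CreERT2, or its vehicle was injected 10 weeks later, and macroscopic tumours were taken 2 weeks after that. The vehicle is given as corn oil in the protocol and as ethanol among the sample characteristics, and is called vehicle here. Part of each cell suspension was kept as it was, and the remainder had cells bearing CD45 (leukocytes) or CD31 (endothelial cells) removed. The 4 resulting libraries (vehicle and tamoxifen, before and after depletion) hold 1 library per group, and the number, age and sex of the animals are not stated in the labels. Leukocytes are present almost only before depletion, so the values below come from the 2 pre-depletion libraries unless stated. The controls share every allele with the treated group, Hnf4aflox included.

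T cells that recognise antigen are restrained by inhibitory receptors, whose ligands sit on antigen-presenting cells, other leukocytes and tumour cells. PD-1 binds PD-L1 and PD-L2, and CTLA-4 competes with the costimulatory receptor CD28 for CD80 and CD86. TIGIT binds CD155 (Pvr) and, more weakly, nectin-2. LAG-3 binds MHC class II, and TIM-3 has several reported ligands, galectin-9 (Lgals9) among them. In tumours, co-expression of such receptors on CD8 T cells is the usual description of exhaustion, and PD-1 and CTLA-4 are the targets of antibodies used against lung cancer.

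The pre-depletion libraries held 7658 barcodes (labelled vehicle) and 6558 (labelled tamoxifen), with 104147479 and 92644997 UMIs (unique molecular identifiers, 1 for each captured transcript). After filtering, 7079 and 6111 cells remained, whose median depths were 9302 and 9894 UMIs. The libraries shared 16 barcodes, 0.209% and 0.244% of each. Levels are UMIs of a gene summed over the cells of a class, divided by all UMIs of that class and given in the usual CPM scale. Hnf4a did not follow the label: in epithelial-like cells it stood at 58.2 CPM in the library labelled vehicle and 91.1 CPM in that labelled tamoxifen, and at 56.0 and 85.2 CPM after depletion. UMIs are counted near transcript 3′ ends and the labels do not say which exons are floxed, so these values check nothing about deletion, and every direction below is between libraries as labelled. Intervals are exact 95% Poisson intervals for CPM, exact conditional binomial intervals for ratios, and Clopper-Pearson intervals for shares of cells. They cover counting error only: without replicates there is no spread between animals, no test and no p-value. For shares of cells with UMIs of the 10 genes, each cell was first thinned at random to 2000 UMIs unless stated. Cells with fewer UMIs were left out, among them 60 of 664 and 88 of 509 neutrophil-like cells. Shares for marker genes were not thinned. Classes were named from marker genes that include none of the 10 genes, which were also barred from clustering. The 16 classes with 50 or more cells in each pre-depletion library were compared, and from 5 to 9 markers were seen in at least 10% of cells in each of them. Cd8a was detected in 66.2% and 72.1% of CD8 T cell-like cells, Foxp3 in 76.7% and 70.8% of regulatory T cell-like cells, and Trdc in 78.2% and 66.7% of gamma-delta T17-like cells. The CD8 T cell-like class was not pure, since Cd4 was detected in 18.1% and 16.9% of it.

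**Figure D1:**
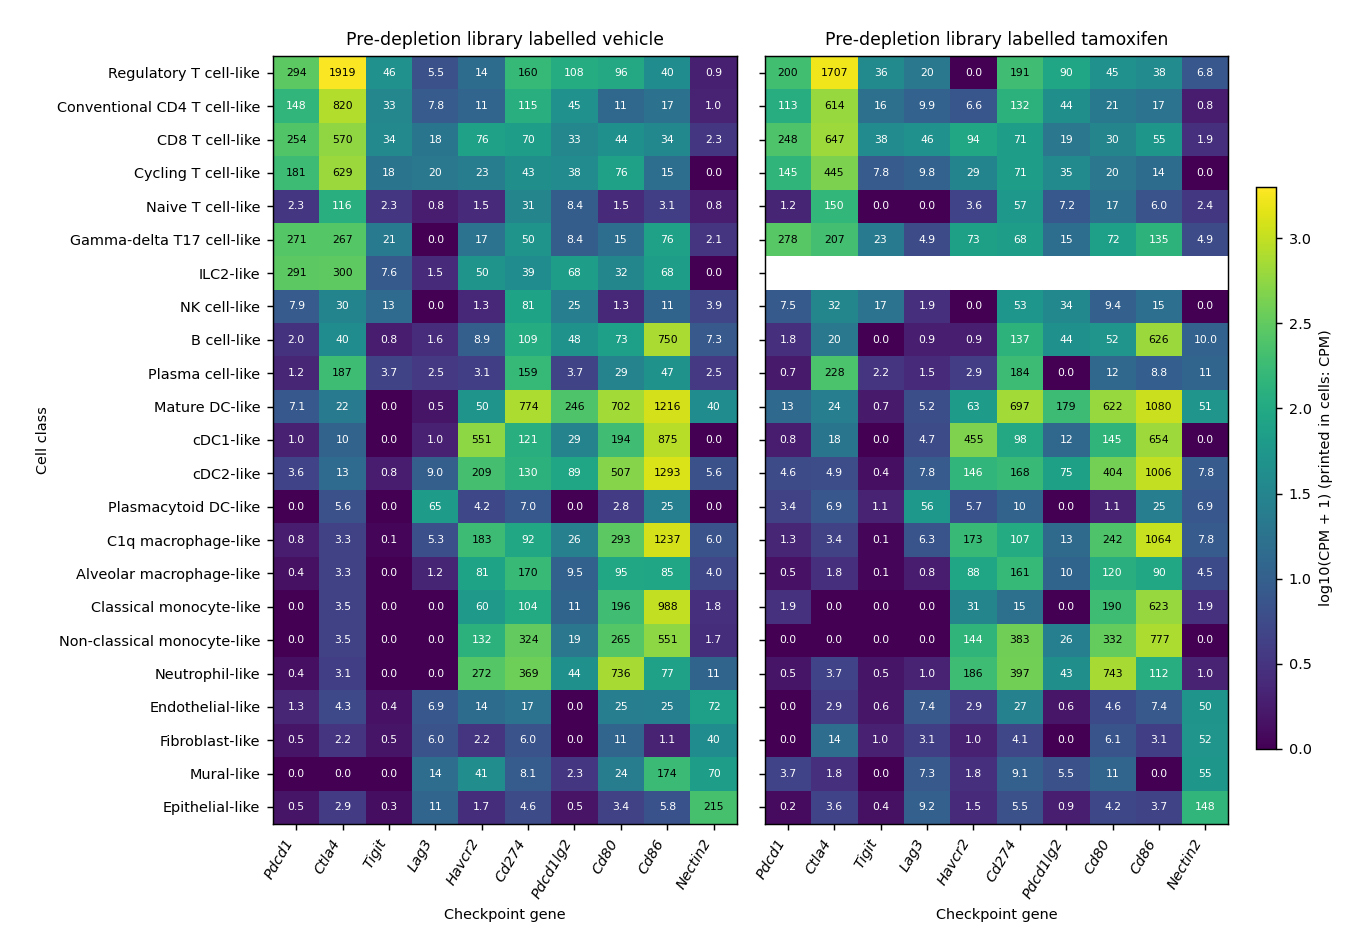
Level of each of the 10 genes (CPM, printed in each cell and coloured on a log scale) in the cell classes of the pre-depletion libraries labelled vehicle and tamoxifen. Receptors other than Havcr2 and Lag3 are highest in T cell-like classes, with Ctla4 at 1919 and 1707 CPM in regulatory T cell-like cells, and ligands other than Nectin2 are highest in myeloid classes.

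The genes differed in breadth. A level of 10 CPM and 10 UMIs in either library was reached in 14 of the 16 classes for Cd274 and in 13 for Cd80 and for Cd86. It was reached in 11 for Pdcd1lg2 and for Havcr2, 9 for Ctla4, 5 for Pdcd1 and for Tigit, 4 for Nectin2 and 3 for Lag3. The highest of the 16 classes was the same in both libraries for 7 of the 10 genes. Ctla4 was highest in regulatory T cell-like cells, Cd274 and Pdcd1lg2 in mature dendritic cell-like cells, Cd80 and Havcr2 in neutrophil-like cells, Lag3 in plasmacytoid dendritic cell-like cells and Nectin2 in epithelial-like cells. Pdcd1, Tigit and Cd86 had a different highest class in each library, and in each of those cases the intervals of the leading classes overlapped in at least one library.

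Ctla4 encodes CTLA-4, which regulatory T cells carry constitutively. In regulatory T cell-like cells Ctla4 stood at 1919 CPM (1837 to 2003) in the library labelled vehicle and 1707 CPM (1587 to 1832) in that labelled tamoxifen, and 87.6% and 84.1% of thinned cells held a UMI. Conventional CD4 T cell-like cells followed with 819.9 and 614 CPM, and CD8 T cell-like cells with 570.0 and 647 CPM. Between the CD4 and the CD8 class the intervals did not overlap in the library labelled vehicle, but they did in that labelled tamoxifen. Naive T cell-like cells, which have not met antigen, were at 116 and 150.4 CPM, and gamma-delta T17-like cells, which make interleukin-17, at 267 and 207 CPM. The 127 and 127 UMIs of the gamma-delta class lay in 20 and 22 cells, with 42 and 28 of them in 1 cell. When T cells were gated one by one on lineage genes instead, the gamma-delta level was 113 and 90.7 CPM. Outside the T lineage, plasma cell-like cells held 187 CPM (166 to 209; 50 cells) and 228 CPM (204 to 255; 47 cells) of Ctla4. A UMI was seen in 26.5% and 31.8% of them after thinning, against 6.4% and 4.2% of B cell-like cells and 0.3% and 0.5% of epithelial-like cells. Natural killer (NK) cell-like cells in their main cluster, led by Gzma, Prf1 and Ncr1, held no Ctla4 UMI in 127 and 87 cells, while the Gzmc, Ccl1 and Csf2 led sub-cluster of that class (34 and 28 cells) held 23 and 17.

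Pdcd1 encodes PD-1, which is induced by antigen receptor signalling. Its level was 294 CPM (263 to 328) in regulatory T cell-like cells labelled vehicle and 200.4 CPM (161 to 247) in those labelled tamoxifen. CD8 T cell-like cells held 254 CPM (227 to 282) and 248 CPM (219 to 279.8), and gamma-delta T17-like cells 271 CPM (226 to 322) and 278 CPM (238 to 323). Regulatory, gamma-delta and CD8 classes thus had overlapping intervals in the library labelled vehicle for each neighbouring pair, while conventional CD4 T cell-like cells were lower, at 148 and 113 CPM. Type 2 innate lymphoid (ILC2)-like cells, 54 cells in the library labelled vehicle, held 291 CPM, and only 8 such cells were found in that labelled tamoxifen. Naive T cell-like cells held 3 and 1 UMIs in all (2.3 and 1.2 CPM), B cell-like cells 2.0 and 1.8 CPM, and epithelial-like cells 0.55 and 0.25 CPM.

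Tigit encodes a receptor of activated T cells and NK cells, and its counts were small. Regulatory T cell-like cells held 50 UMIs (46.1 CPM, 34.2 to 60.8) and 16 UMIs (36.0 CPM, 20.6 to 58.5) in the libraries labelled vehicle and tamoxifen. CD8 T cell-like cells held 45 and 40 UMIs (34.4 and 38.1 CPM), and the intervals of these classes overlapped in both libraries. NK cell-like cells were at 13.1 and 17 CPM, and no more than 2 UMIs were found in the alveolar macrophage-like cells of either library.

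Lag3 encodes a receptor related to CD4. It was highest in plasmacytoid dendritic cell-like cells, the interferon-producing dendritic cells, with 64.8 CPM (47.5 to 86.5) and 56.0 CPM (41.4 to 74.0). CD8 T cell-like cells held 18.3 CPM (11.8 to 27.3) in the library labelled vehicle and 45.7 CPM (33.7 to 60.7) in that labelled tamoxifen. Lag3 UMIs were found in epithelial-like cells as well, at 10.9 CPM (9.7 to 12.1) and 9.2 CPM (8.2 to 10.3). Because these cells are large and many, they held 46.1% and 48.9% of each library's Lag3 UMIs. After thinning, 2.0% and 2.2% of epithelial-like cells had a UMI of Lag3, against 0.2% and 0.5% of B cell-like cells. The epithelial level differed between clusters: it was 19.2 CPM (16.1 to 22.7) in the Agr2, Ttr and Gdf15 led cluster and 2.8 CPM (1.6 to 4.4) in the Scgb1a1, Lyz1 and Cbr2 led cluster of the library labelled vehicle. It was also 9.2 and 8.5 CPM in the post-depletion epithelial-like cells. No annotated gene overlaps Lag3.

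Havcr2 encodes TIM-3, known from exhausted T cells and from myeloid cells. In these tumours it was mainly a myeloid transcript. Neutrophil-like cells held 272 CPM (252 to 292) and 186 CPM (168 to 207), type 2 conventional dendritic cell (cDC2)-like cells 209 and 146 CPM, and macrophage-like cells marked by C1q genes 183 and 173 CPM. The small cDC1-like class, 43 and 57 cells and so outside the compared set, stood above them at 551 CPM (506 to 599) and 455 CPM (418 to 493). Among T cell-like classes, CD8 T cell-like cells held 76.4 CPM (62.2 to 92.9) and 94.4 CPM (76.7 to 115). Conventional CD4 T cell-like cells were at 11 and 6.6 CPM, and NK cell-like cells held 1 and 0 UMIs.

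**Figure D2:**
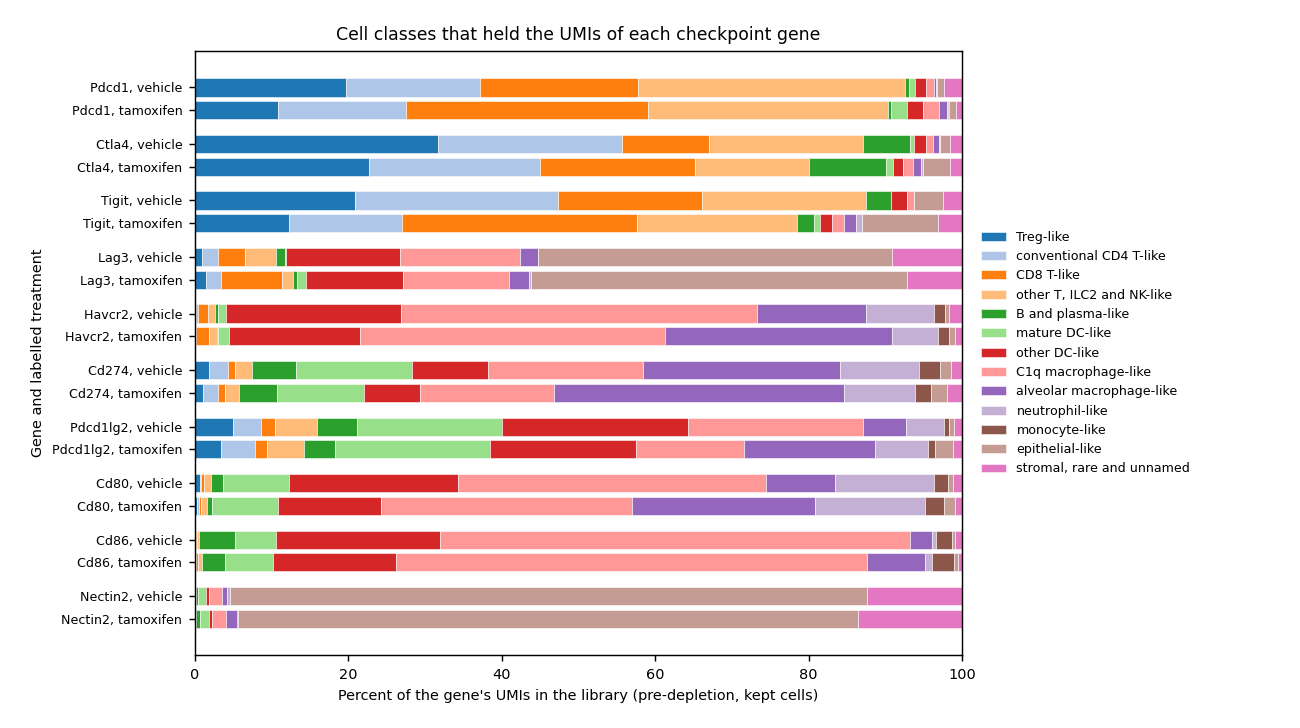
Share of each gene's UMIs (percent of the kept cells' UMIs of that gene) that came from each cell class in each pre-depletion library. C1q macrophage-like cells held 61.2% and 61.4% of Cd86, and epithelial-like cells held 83.0% and 80.9% of Nectin2 in the libraries labelled vehicle and tamoxifen.

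Levels per class and the class's size together set where a gene's UMIs lay. Mature dendritic cell-like cells had the highest Cd274 level but held only 15.2% and 11.4% of its UMIs, while alveolar macrophage-like cells held 25.7% and 37.9%. C1q macrophage-like cells held 40.1% and 32.8% of Cd80, 61.2% and 61.4% of Cd86 and 46.4% and 39.8% of Havcr2. Regulatory T cell-like cells held 31.7% and 22.6% of Ctla4, and CD8 T cell-like cells 20.5% and 31.6% of Pdcd1. The plot of UMI sources shows these shares with smaller classes grouped.

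Within the CD8 T cell-like class, both sub-clusters carried the receptors at different levels. The sub-cluster led by Cd8a, Cd8b1 and Cxcr6 (a chemokine receptor of tissue-resident T cells) held 105 and 111 cells in the libraries labelled vehicle and tamoxifen. Its Pdcd1 level was 385 CPM (339 to 435) and 303 CPM (261 to 348). The sub-cluster led by Nkg7, Ccl5 and Gzmk, genes of cytotoxic effector cells, held 105 and 61 cells and had 115 CPM (90.0 to 144) and 163 CPM (126 to 207) of Pdcd1. Pdcd1 was therefore lower in the Gzmk sub-cluster in both libraries, with intervals that did not overlap. Ctla4 was also lower there in the library labelled vehicle, at 404 against 726 CPM, and the libraries labelled tamoxifen gave 571 and 696 CPM with overlapping intervals. Lag3, Havcr2 and Tigit had the reverse order in the library labelled tamoxifen: Lag3 97.2 against 12.5 CPM, Havcr2 134 against 69.0 CPM and Tigit 70.5 against 17.2 CPM. In the library labelled vehicle, Lag3 (22.0 against 14.9 CPM) and Tigit (34.6 against 34.2 CPM) had overlapping intervals between the sub-clusters, and Havcr2 was lower in the Gzmk sub-cluster (53.5 against 98 CPM).

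The Gzmk sub-cluster mixed CD4 and CD8 cells. Of its cells, 54 and 25 held a Cd8a or Cd8b1 UMI and no Cd4 UMI, and 28 and 28 held a Cd4 UMI and no Cd8 UMI. In the cells with only Cd4 UMIs, Lag3 had 3 UMIs in 3 cells in the library labelled vehicle and 33 UMIs in 10 cells in that labelled tamoxifen. Havcr2 had 10 UMIs there in 5 cells and 47 UMIs in 11 cells, and Tigit 9 UMIs in 8 cells and 21 UMIs in 14 cells. In the cells with only Cd8 UMIs, Lag3 had 11 UMIs in 5 cells and 7 UMIs in 3 cells (32.1 and 37.5 CPM), and Havcr2 19 UMIs in 2 cells and 8 UMIs in 3 cells. The larger Lag3 and Havcr2 counts of this sub-cluster in the library labelled tamoxifen thus lay in cells with Cd4 UMIs. This split was made after the class values had been seen.

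**Figure D3:**
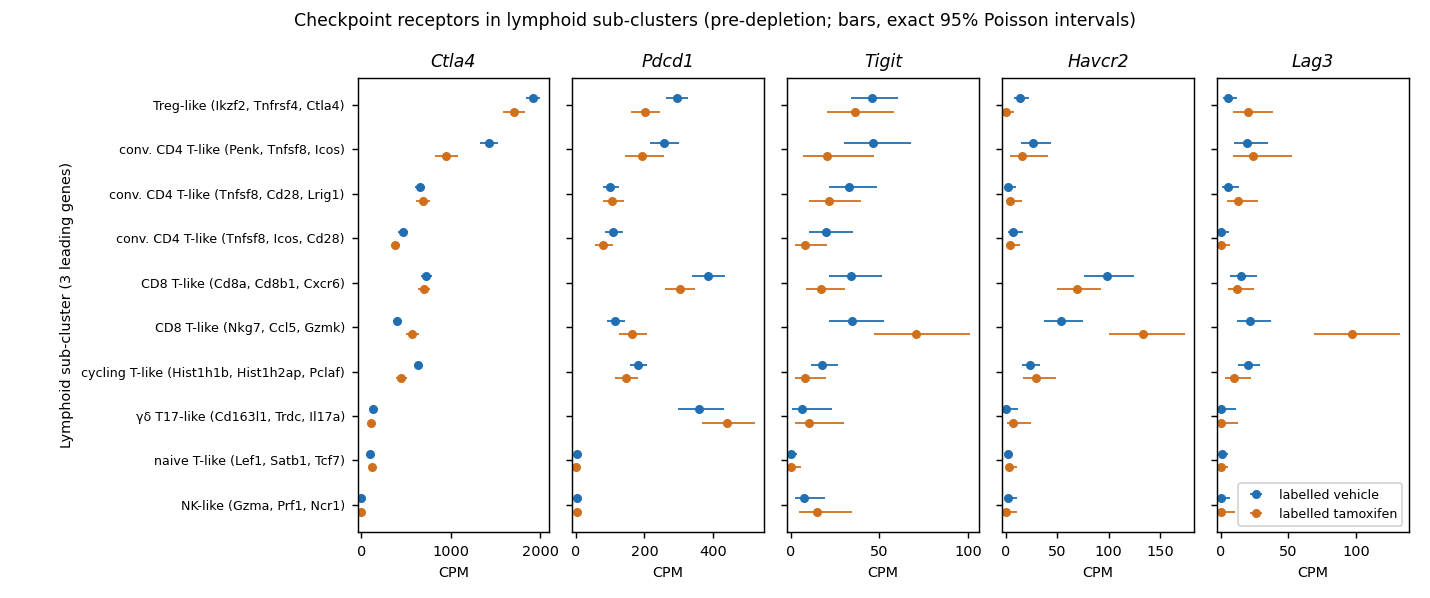
Levels of the 5 receptors (CPM, linear axis with its own range for each gene, with exact 95% Poisson intervals) in the sub-clusters of T cell-like classes, named by their leading genes, in the pre-depletion libraries. Lag3 in the Nkg7, Ccl5 and Gzmk led sub-cluster stood at 22.0 CPM in the library labelled vehicle and 97.2 CPM in that labelled tamoxifen, and Pdcd1 in the Cd8a, Cd8b1 and Cxcr6 led sub-cluster at 385 and 303 CPM.

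Conventional CD4 T cell-like cells also differed among themselves. The sub-cluster led by Penk, Tnfsf8 and Icos held 1423 CPM (1326 to 1526; 95 cells) and 947 CPM (829.9 to 1077; 41 cells) of Ctla4, above the Tnfsf8, Cd28 and Lrig1 led sub-cluster at 654 and 691 CPM. The third, led by Tnfsf8, Icos and Cd28, held 465 and 379.6 CPM. Pdcd1 had the same order at its top, with 257 and 194 CPM in the Penk sub-cluster against 99.2 and 105 CPM in the Lrig1 sub-cluster. Among gamma-delta T17-like cells, the sub-cluster led by Cd163l1, Trdc and Il17a held 360 CPM (297 to 433) and 441 CPM (368 to 524) of Pdcd1 with 0 and 2 Havcr2 UMIs in 44 and 36 cells. Pdcd1 with little or no Havcr2 was the pattern of these cells in both libraries, but was not particular to them. Regulatory T cell-like cells, with Pdcd1 at 294 and 200.4 CPM, had Havcr2 at 13.8 and 0 CPM. Conventional CD4 T cell-like cells, with Pdcd1 at 148 and 113 CPM, had Havcr2 at 11 and 6.6 CPM.

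Receptors were counted together in single cells. Of thinned CD8 T cell-like cells, 18 of 204 (8.82%, 5.31 to 13.6) in the library labelled vehicle and 14 of 163 (8.59%, 4.78 to 14.0) in that labelled tamoxifen had UMIs of at least 2 of Pdcd1, Lag3, Tigit and Havcr2. The intervals overlapped almost wholly, and independent detection of the 4 genes at their own shares would give 6.24% and 8.73%. No B cell-like cell had such a pair, 0 of 408 and 0 of 189 thinned cells. By a floor of 3 counts this allows shares of such cells of up to 0.735% and 1.59% at this depth, and the Clopper-Pearson upper limits are 0.90% and 1.93%. Without thinning the counts were 1 of 424 and 0 of 207. Regulatory T cell-like cells reached 5.33% and 4.35% and conventional CD4 T cell-like cells 1.83% and 2.08%. Pdcd1 and Ctla4 were seen together more often in CD8 T cell-like cells than independence gives: 21.1% (15.7 to 27.3) against 15.3%, and 28.8% (22.0 to 36.4) against 19.9%. The class pools sub-clusters that differ in the levels of these genes, and co-detection within each was not tested. A Ctla4 UMI was found in 71.7% and 87.0% of the cells with Pdcd1 and in 43.8% and 46.8% of those without. In regulatory T cell-like cells, where Ctla4 was nearly ubiquitous, the corresponding shares were 82.5% and 90.6% in the library labelled vehicle and 88.2% and 82.7% in that labelled tamoxifen.

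The ligands of PD-1, Cd274 and Pdcd1lg2, lie next to each other on chromosome 19 in GRCm38 (Cd274 at chr19:29367455-29388095 and Pdcd1lg2 at chr19:29410919-29471161 in GENCODE M21, both on the plus strand). Their gene bodies are 22.823 kb apart. Cd274 was among the 3 genes most alike to Pdcd1lg2 over the class levels, and the reverse. The 250 bases upstream of each start in RefSeq (build GRCm38.p6, plus strand) are shown because both genes peaked in the same class. Capitals mark a match to the NF-κB consensus, whose factor is active in maturing dendritic cells.
Cd274, chr19:29367188-29367437: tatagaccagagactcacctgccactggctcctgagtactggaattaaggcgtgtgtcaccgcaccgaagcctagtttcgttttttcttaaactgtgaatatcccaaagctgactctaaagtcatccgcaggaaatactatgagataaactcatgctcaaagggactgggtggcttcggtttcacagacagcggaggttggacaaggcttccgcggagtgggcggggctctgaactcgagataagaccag
Pdcd1lg2, chr19:29410669-29410918: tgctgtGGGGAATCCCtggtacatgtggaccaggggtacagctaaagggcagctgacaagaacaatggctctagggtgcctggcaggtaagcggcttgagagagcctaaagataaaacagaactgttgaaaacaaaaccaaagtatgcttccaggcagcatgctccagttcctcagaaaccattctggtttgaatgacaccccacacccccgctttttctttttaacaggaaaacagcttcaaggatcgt
The match begins 244 bases before the start of Pdcd1lg2. On both strands, the NF-κB consensus was found in 3.90% of 32851 upstream windows, the interferon-stimulated element GAAANNGAAA in 2.98% and the interferon-γ activated site TTCNNNGAA in 7.02%. Of the 10 genes, 8 had a window, and 1, 0 and 0 of these held the respective motifs. A match is a description of letters, and its absence says only that these letters are not in the window.

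Cd274 encodes PD-L1, which interferon-γ induces in many cells. Mature dendritic cell-like cells, the migratory antigen-presenting cells marked by Ccr7 and Fscn1, held 774 CPM (734 to 815) and 697 CPM (653 to 743), with a UMI in 74.5% and 68.5% of thinned cells. Neutrophil-like cells (369 and 397 CPM) and non-classical monocyte-like cells (324 and 383 CPM) came next with overlapping intervals. Alveolar macrophage-like cells were at 169.8 and 161 CPM, regulatory T cell-like cells at 160.4 and 191 CPM, and C1q macrophage-like cells at 92.0 and 107 CPM. Epithelial-like cells, not split here into tumour and normal cells, had the lowest level of the 16 classes in both libraries, at 4.6 CPM (3.9 to 5.5) and 5.5 CPM (4.8 to 6.4), beside 7.0 and 10.3 CPM in plasmacytoid dendritic cell-like cells, with a UMI in 0.7% and 1.1% of thinned cells. After depletion, 2.0 and 1.8 CPM were found in epithelial-like cells. Cd274 has 511 exonic bases in common with the antisense gene AC119228.1, which is not among the features. The small classical monocyte-like class (54 and 47 cells), outside the compared set, gave 104 and 15.3 CPM.

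Pdcd1lg2 encodes PD-L2, which is more restricted to antigen-presenting cells. Its level in mature dendritic cell-like cells was 246 CPM (224 to 269.9) and 179.5 CPM (158 to 204), with intervals that did not overlap between the libraries. Regulatory T cell-like cells held 108 and 90.1 CPM and cDC2-like cells 89.1 and 74.9 CPM, again with overlapping intervals between these classes. Epithelial-like cells held 0.5 and 0.9 CPM and endothelial-like cells 0 and 1 UMIs. In neutrophil-like cells, a Pdcd1lg2 UMI was found in 13.2% and 10.0% of those with a Cd274 UMI and in 3.9% and 3.0% of those without. The class pools clusters that differ in Cd274, and co-detection within each was not tested. In mature dendritic cell-like cells the corresponding shares were 35.5% and 11.5% in the library labelled vehicle. They had the reverse order in that labelled tamoxifen, at 32.0% and 39.1%.

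Cd80 and Cd86 encode the ligands shared by CD28 and CTLA-4. Neutrophil-like cells held 736 CPM (703 to 769) and 743 CPM (705 to 783) of Cd80, with a UMI in 57.8% and 59.9% of thinned cells, beside mature dendritic cell-like cells at 702 and 622 CPM. The same neutrophil-like cells held little Cd86, 76.7 and 112 CPM, which C1q macrophage-like cells (1237 and 1064 CPM), cDC2-like cells (1293 and 1006 CPM) and mature dendritic cell-like cells (1216 and 1079.9 CPM) held at many times that level. B cell-like cells were the other way round from neutrophils, with 749.8 and 626 CPM of Cd86 and 73.0 and 51.6 CPM of Cd80. In mature dendritic cell-like cells both were detected in 55.9% (45.7 to 65.7) and 52.1% (40.0 to 63.9) of thinned cells. Independent detection would give 51.9% and 45.0%, inside these intervals. A Cd86 UMI was found in 87.7% and 80.9% of those with Cd80 against 70.3% and 50% of those without. Epithelial-like cells held 3.4 and 4.2 CPM of Cd80 and 5.8 and 3.7 CPM of Cd86. After depletion the same class held 0.54 and 0.27 CPM of Cd80 and 0.23 and 0.10 CPM of Cd86.

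Ligand levels differed between the clusters of a class as well. The larger neutrophil-like cluster, led by Camp, G0s2 and Ngp (509 and 411 cells), held 862 and 866 CPM of Cd80, 417 and 458 CPM of Cd274 and 344 and 225 CPM of Havcr2. The smaller one, led by Retnlg, S100a9 and S100a8 (155 and 98 cells), held 320.2 and 279.6 CPM of Cd80, 209 and 169.8 CPM of Cd274 and 34.3 and 42.4 CPM of Havcr2. These 3 genes were therefore higher in the first cluster in both libraries, with intervals that did not overlap. Of the C1q macrophage-like cells, the cluster led by Arg1, Ccl24 and Nrg1 held 352 and 309 CPM of Cd80 and 27.3 and 15.3 CPM of Pdcd1lg2. The one led by Ms4a7, Ccl12 and Apoe held 104 and 106 CPM of Cd80 and 1.6 and 2.0 CPM of Pdcd1lg2, but more Cd86 (1563 and 1305 CPM against 1103 and 1033 CPM). Alveolar macrophage-like cells in the Kcnip4, Lepr and Olr1 led cluster held 139 and 166 CPM of Cd80, and those in the Chil3, Wfdc21 and Ear10 led cluster 36.7 and 41.8 CPM.

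Nectin2 encodes an adhesion molecule of epithelial and endothelial junctions that TIGIT and PVRIG bind. Its main site was the epithelial-like class, which held 215 CPM (209.5 to 220.2) and 148 CPM (144 to 152), and 83.0% and 80.9% of the gene's UMIs. After depletion the level in the same class was 216 CPM in the library labelled vehicle and 164 CPM in that labelled tamoxifen, from 27475 and 20342 UMIs. On the log2 scale the library labelled tamoxifen differed from the other by -0.53 (-0.59 to -0.48) before and -0.39 (-0.42 to -0.37) after depletion. Both intervals lie below 0 and both differences fall short of 2-fold, and the portions come from the same suspensions, so the second is not a replicate. Endothelial-like cells held 72.0 and 49.7 CPM and mature dendritic cell-like cells 39.5 and 51.2 CPM, and mural-like cells (37 and 33 cells) 69.7 and 54.9 CPM. Nectin2 shares 135 exonic bases with the antisense gene Gm20512, which is among the features.

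**Figure D4:**
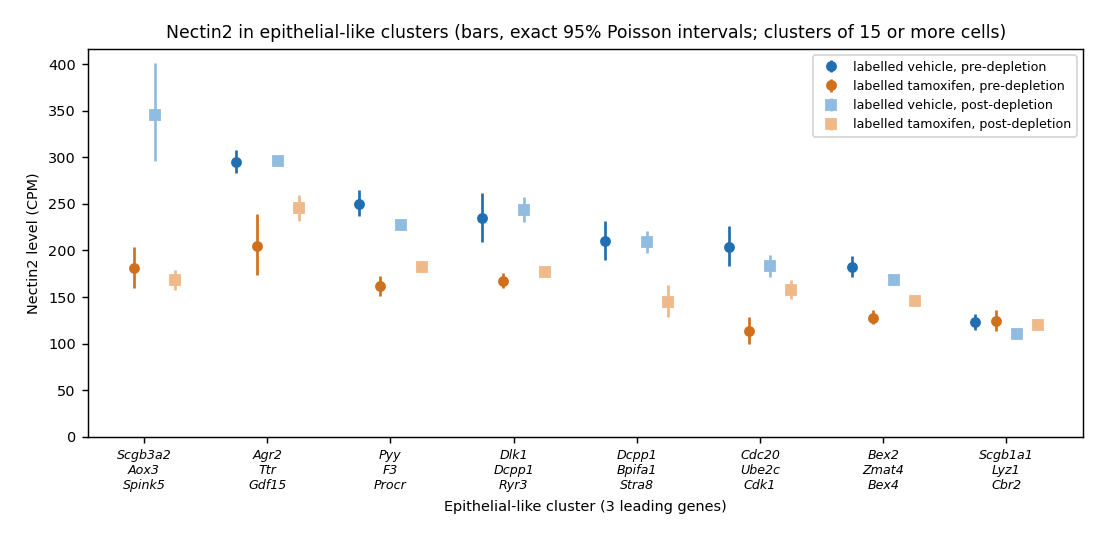
Nectin2 level (CPM, with exact 95% Poisson intervals) in each epithelial-like cluster, named by its leading genes, in the 4 libraries. The Agr2, Ttr and Gdf15 led cluster is the highest before depletion in both libraries (295 and 205 CPM), and the Scgb1a1, Lyz1 and Cbr2 led cluster lies between 111 and 125 CPM in all 4 libraries.

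The epithelial-like class was made of different clusters in the libraries: its largest was the Scgb1a1, Lyz1 and Cbr2 led cluster in the library labelled vehicle (37.6% of the class) and the Bex2, Zmat4 and Bex4 led cluster in that labelled tamoxifen (29.2%). Nectin2 was therefore read within clusters. In the Pyy, F3 and Procr led cluster it stood at 250.4 and 162 CPM before depletion and at 228 and 182 CPM after. The Dlk1, Dcpp1 and Ryr3 led cluster gave 235 and 167 CPM and then 244 and 177 CPM, and the Bex2 led cluster 182 and 128 CPM and then 168 and 145 CPM. Agr2 led cells, 139 and 17 cells before depletion, gave 295 and 205 CPM and then 296 and 245 CPM. The lower level in the libraries labelled tamoxifen was thus present within these clusters and in the Cdc20, Ube2c and Cdk1 led cycling cluster (204 and 113 CPM, then 183 and 158 CPM). The Dcpp1, Bpifa1 and Stra8 led cluster, with 15 or more cells of both labels only after depletion, gave 209 and 145 CPM, and the Scgb3a2, Aox3 and Spink5 led cluster, likewise, 346 CPM (60 cells) and 168 CPM (510 cells). It was not seen in the Scgb1a1 led cluster, with 123 and 125 CPM before and 111 and 120.3 CPM after depletion.

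Over whole pre-depletion libraries, all 10 genes were at lower levels in the library labelled tamoxifen, the smallest differences being those of Cd274 (94.2 and 92.5 CPM) and Lag3 (7.0 and 6.8 CPM). Ctla4 went from 66.5 CPM in the library labelled vehicle to 37.5 CPM in that labelled tamoxifen, Pdcd1 from 16.4 to 9.2 CPM, Pdcd1lg2 from 24.0 to 13.4 CPM and Cd86 from 417 to 259 CPM. The libraries differed in their cells: regulatory T cell-like cells were 2.49% (2.14 to 2.88) and 1.18% (0.92 to 1.48) of kept cells, C1q macrophage-like cells 15.4% and 11.7%, cDC2-like cells 4.22% and 2.16%, and alveolar macrophage-like cells 21.5% and 33.1%. If every class kept its level from the library labelled vehicle and only the classes' share of UMIs became that of the other library, Ctla4 would stand at 63.3% of its vehicle value, where 56.4% was measured. With the classes' shares held and only the levels exchanged, it would stand at 85.1%. For Pdcd1 the measured 56.0% compares with 65.4% from makeup and 78.8% from levels, and for Cd86 the measured 62.2% with 72.6% and 84.7%. Nectin2 differed from these, with 86.3% measured, 118% from makeup and 73.7% from levels. Lag3 had 97.4% measured, 100.4% from makeup and 99.7% from levels, and Cd274 had 98.2%, 95.4% and 106.8%. These are arithmetic splits of 1 library pair, and suspensions that differ in dissociation or in the tumours taken cannot be told apart from the treatment.

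Levels within classes were then compared for the 10 genes in the 16 classes. A pair of gene and class was considered when it reached 10 CPM and 10 UMIs in either library, which 88 of the 160 pairs did, and was counted as apart when the CPM differed at least 2-fold (pseudocount 1 CPM). Of the 88 pairs, 4 were higher in the library labelled tamoxifen (4.55%), where 2.21% of all 130246 gene and class pairs were, and 9 were lower (10.2%), where 3.45% of all pairs were. When each cell was scaled first and the class mean taken over cells, 6 pairs were higher and 4 lower, so the split between directions rests on how cells are weighted. The median log2 ratio was -0.02 over the 88 pairs, 42 of them above 0 and 46 below. Most checkpoint levels therefore differed less than 2-fold between the libraries: 75 of the 88 pairs. No pair of Pdcd1 (5 considered) or Cd274 (14 considered) was apart in either direction in this count, and their ratios ran from -0.55 to 0.74 and from -0.62 to 0.89 on the log2 scale. The highest-level pairs had narrow intervals, such as Ctla4 in regulatory T cell-like cells at -0.17 (-0.29 to -0.05), Cd274 in mature dendritic cell-like cells at -0.15 (-0.27 to -0.03) and Cd80 in neutrophil-like cells at 0.01 (-0.09 to 0.11).

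**Figure D5:**
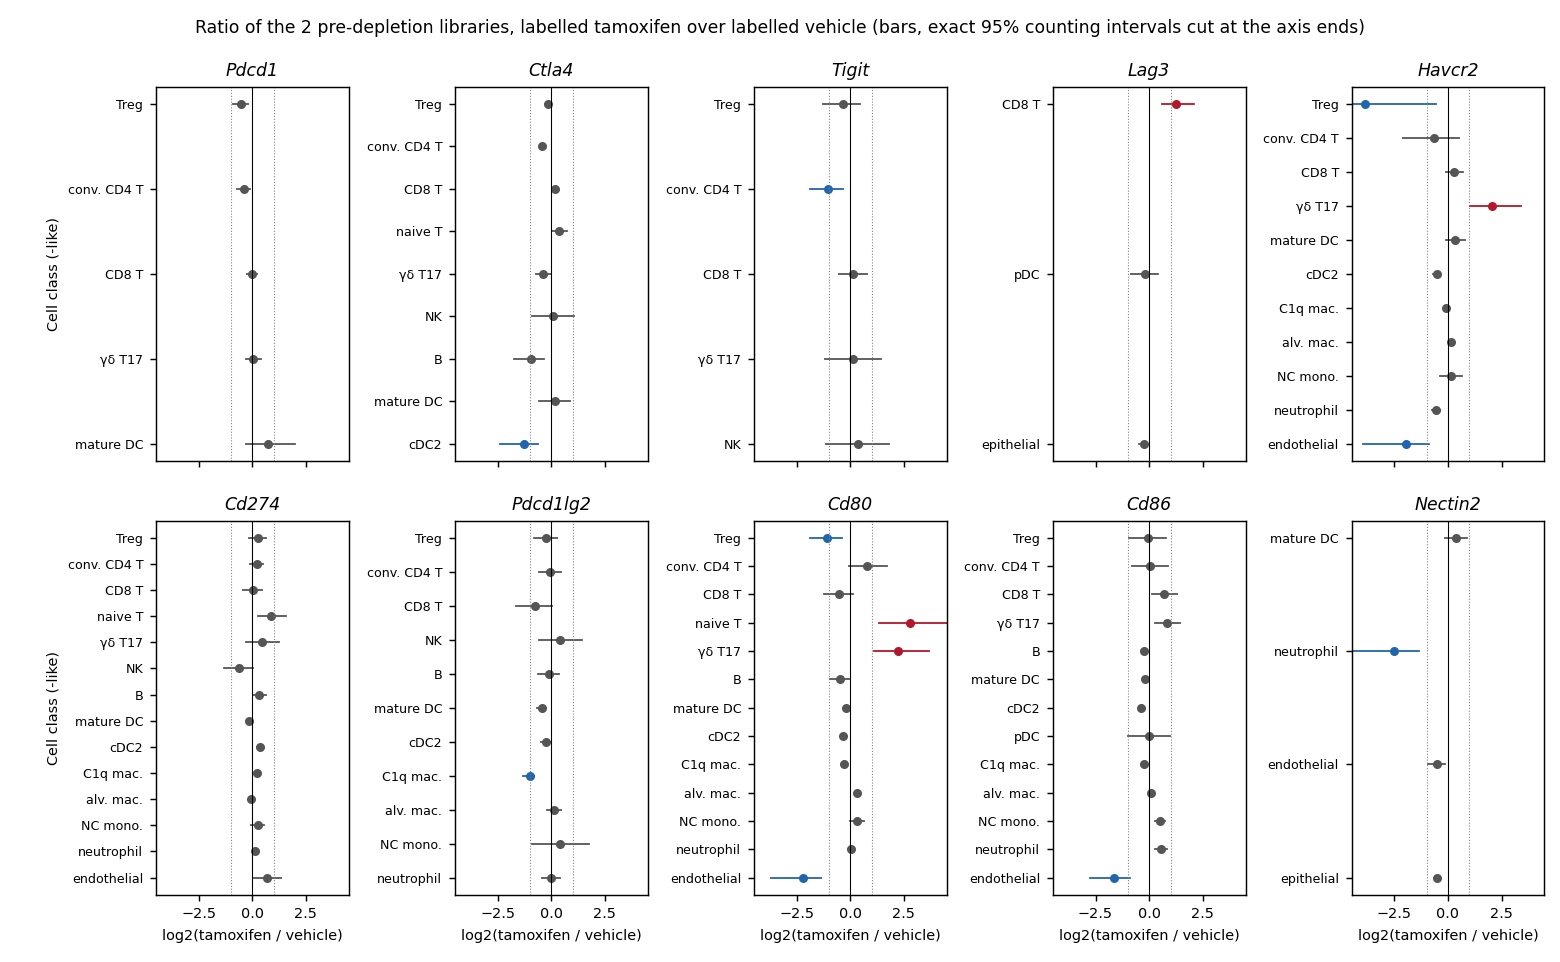
Log2 ratio of the library labelled tamoxifen over that labelled vehicle, with exact 95% counting intervals, for each considered pair of gene and class before depletion. Red and blue points are the 4 higher and 9 lower pairs, and dotted lines mark 2-fold.

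Among the receptors, Lag3 in CD8 T cell-like cells was higher in the library labelled tamoxifen, as were 2.25% of the genes of that class: 24 UMIs in 16 cells (18.3 CPM) and 48 UMIs in 17 cells (45.7 CPM), a log2 ratio of 1.27 (0.58 to 2.09). When T cells were instead gated one by one on their Cd8a, Cd8b1, Cd4, Foxp3 and Trdc UMIs, Lag3 in CD8-gated cells was 25.8 and 18.0 CPM, so the direction turned, and in CD4-gated cells it was 12.5 and 30.7 CPM. Havcr2 behaved likewise under the gate in CD4-gated cells, at 18.7 and 59.9 CPM. In gamma-delta T17-like cells, Havcr2 was 16.8 CPM (8 UMIs in 5 cells) and 73.2 CPM (45 UMIs in 12 cells, 20 of them in 1 cell), and Cd80 was 14.7 and 71.6 CPM (7 and 44 UMIs), in a class where 6.09% of genes were higher. Markers of C1q macrophages moved with both: their summed level in that class was 145 CPM with 7 of 8 markers detected in the library labelled vehicle (C1qc at 0) and 1214 CPM with 8 of 8 in that labelled tamoxifen. Those of cDC2 stood at 6.3 CPM (2 of 6) and 117 CPM (5 of 6), with Cd209d at 0 in both, and those of alveolar macrophages at 1612 and 2101 CPM. Those of mature dendritic cells went the other way, at 326 CPM (7 of 8) and 200 CPM (6 of 8), and those of neutrophils were at 31.5 and 40.7 CPM. Their part in the result was not tested. Foxp3 was detected in 5.45% and 11.1% of the class. The Havcr2 UMIs lay in a sub-cluster of 11 and 18 cells led by Tox, Ikzf2 and Cd163l1, which held 8 of 8 UMIs (49.3 CPM, 21.3 to 97.2) and 43 of 45 UMIs (134 CPM, 96.7 to 180.0). Cd80 in it was 37.0 CPM (13.6 to 80.5) and 118 CPM (83.6 to 162). Keeping doublets took Havcr2 in the class from a log2 ratio of 2.06 to 0.80 and Cd80 from 2.21 to 0.61, and the mean over cells took Cd80 to 0.48, so these settings end the calls. Without the sub-cluster the class held too few cells to be compared, and 2 pairs in place of 4 were higher.

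Receptors gave 4 of the 9 lower pairs, 1 of them in endothelial-like cells. Tigit in conventional CD4 T cell-like cells, where 2.19% of genes were lower, was 32.9 CPM (63 UMIs) in the library labelled vehicle and 15.6 CPM (19 UMIs) in that labelled tamoxifen, a log2 ratio of -1.03. Of 11 alternatives, 5 kept this pair past 2-fold. Among CD4-gated cells it was 35.9 and 32.2 CPM, a log2 ratio of -0.15, and it was -0.73 with the mean over cells. Havcr2 in regulatory T cell-like cells, where 7.89% of genes were lower, was 13.8 CPM (15 UMIs in 8 cells) and 0 UMIs in the 2 libraries, and the counting interval of the log2 ratio ended at -0.55. With the gate on single T cells the level was 15.2 and 19.1 CPM, so this direction also turned. Ctla4 in cDC2-like cells, where 0.92% of genes were lower, was 13.4 CPM and 4.9 CPM (82 and 14 UMIs), and 23 of the vehicle UMIs lay in 1 cell. Its log2 ratio of -1.28 became -0.30 with the mean over cells, under 2-fold. Markers of conventional CD4 T cells summed to 59.5 CPM (7 of 7 detected) and 64.0 CPM (5 of 7, with Cd40lg and Izumo1r at 0) in that class. Their part in the result was not tested.

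The lower pair with the largest counts was Pdcd1lg2 in C1q macrophage-like cells, a class where 0.378% of genes were lower, with 538 UMIs (26.4 CPM, 24.2 to 28.8) and 169 UMIs (12.6 CPM, 10.8 to 14.7), a log2 ratio of -1.01. The level was 27.3 and 15.3 CPM in the Arg1, Ccl24 and Nrg1 led cluster, less than 2-fold apart, and 57.2 and 20.2 CPM in the Top2a, Hist1h1b and Birc5 led cycling cluster. Without clusters led by cell cycle genes the log2 ratio was -0.81, under 2-fold, and with TMM and median-of-ratios scaling it was -0.98 and -0.99. Cd80 in regulatory T cell-like cells was 95.9 CPM (104 UMIs in 56 cells) and 45.0 CPM (20 UMIs in 13 cells), a log2 ratio of -1.07 (-1.86 to -0.39). Markers of C1q macrophages summed to 109 and 146 CPM in that class, with 7 of 8 detected in both and Trem2 at 0. Those of cDC2 summed to 11.1 CPM (4 of 6) and 2.3 CPM (1 of 6), and those of mature dendritic cells to 239 CPM (7 of 8) and 356 CPM (6 of 8). Their part in the result was not tested. In the other direction, Cd80 in naive T cell-like cells, where 2.15% of genes were higher, was 1.5 and 16.7 CPM, but from 2 UMIs and 14 UMIs, 8 of the latter in 1 cell, and keeping doublets took its log2 ratio from 2.81 to 1.0.

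Endothelial-like cells gave 3 of the 9 lower pairs, in a class where 3.82% of genes were lower. Cd80 was 24.6 and 4.6 CPM (57 UMIs in 11 cells and 8 UMIs in 6 cells), Cd86 25.4 and 7.4 CPM (59 and 13 UMIs) and Havcr2 13.8 and 2.9 CPM (32 and 5 UMIs). A single cell of the library labelled vehicle held 44 of the 59 Cd86 UMIs, and without the cell of most UMIs in each library the log2 ratio of Cd86 was -0.04 in place of -1.65. With the mean over cells it was -0.23, and that of Havcr2 was -0.94 in place of -1.94. After depletion, endothelial-like cells (167 and 123 cells) held 0 UMIs of Cd80, Cd86 and Havcr2 in both libraries. Their Nectin2 level was then 68.4 and 59.0 CPM. Markers of C1q macrophages summed to 476 and 231 CPM in the endothelial-like class, with 8 of 8 detected in both libraries, and those of cDC2 to 34.9 CPM (5 of 6, with Flt3 at 0) and 0.57 CPM (1 of 6). Those of alveolar macrophages went the other way, at 134 and 311 CPM. Neutrophil markers stood at 759 and 611 CPM and mature dendritic cell markers at 316 and 288 CPM. Their part in the result was not tested. Nectin2 in neutrophil-like cells, where 2.49% of genes were lower, was 10.7 CPM (28 UMIs) and 1.0 CPM (2 UMIs), beside epithelial markers at 183 and 145 CPM with 8 of 8 detected in both. Their part in the result was not tested. Leaving out the cell with most UMIs of the gene in each library kept 12 of the 13 pairs past 2-fold, and 6 of the 13 then fell below the minimum of 10 CPM and 10 UMIs.

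The genes around the checkpoint molecules were read from 5 lists. Over the 16 classes, regulators of exhaustion and memory were higher in 1 and lower in 11 of 140 considered pairs, and other inhibitory receptors in 5 and 3 of 104. Costimulatory receptors were higher in 5 and lower in 5 of 66, other ligands in 14 and 6 of 158, and genes of the interferon-γ response in 20 and 9 of 294. These are 0.714% and 7.86%, 4.81% and 2.88%, 7.58% and 7.58%, 8.86% and 3.80%, and 6.80% and 3.06% of the pairs of each list in turn, beside 2.21% and 3.45% of all pairs. In CD8 T cell-like cells, 13 of 13 regulators of exhaustion and memory were considered, of which 0 were higher and 1 was lower, with a median log2 ratio of -0.18 beside -0.07 over all genes of the class. The lower one was Slamf6, a receptor of progenitor-like exhausted cells, at 118 and 38.1 CPM (154 and 40 UMIs). Tcf7, the transcription factor of that state, was 173 and 98.2 CPM, short of 2-fold. Of the 13 ratios, 5 were above 0 and 8 below 0. All genes of this class passed the 2-fold rule upwards in 2.25% and downwards in 3.64% of cases. Of 10 other inhibitory receptors considered of 13 there, Cd160 was higher (13 and 29.5 CPM) and Klrg1 lower (11.5 and 4.8 CPM, from 15 and 5 UMIs, with an interval of the ratio that includes 0), and of 7 costimulatory receptors considered of 8 none was apart. In conventional CD4 T cell-like cells, where 1.7% of genes were higher and 2.19% lower, 12 of 12 considered regulators of exhaustion and memory had a ratio below 0, none past 2-fold. Of all genes of the class 59.6% were below 0, and the median of the list was -0.30 beside -0.09 over all genes. In regulatory T cell-like cells, where 2.34% of genes were higher and 7.89% lower, 8 of 8 costimulatory receptors were considered and none was apart, and 6 of 6 considered other inhibitory receptors had a ratio below 0, none past 2-fold, with a median of -0.66 beside -0.11 over all genes, of which 57.6% were below 0.

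Interferon-γ, made by activated T cells, induces PD-L1 and the chemokines that draw T cells in. In cDC2-like cells, 20 of 22 genes of its response list were considered, and 5 were higher and 1 lower, where 1.51% and 0.92% of all genes of the class were. The higher ones were Cxcl9 (38.3 and 126 CPM), Gbp2 (27.2 and 65.7 CPM), Irgm1 (12.5 and 33.9 CPM), Igtp (8.5 and 19.1 CPM) and Iigp1 (4.8 and 17.7 CPM), and the lower one was Cxcl10 (54.7 and 22.3 CPM). Single cells held much of these counts: 115 of 234 and 164 of 357 Cxcl9 UMIs, 129 of 334 and 31 of 63 Cxcl10 UMIs and 47 of 166 and 37 of 186 Gbp2 UMIs. The same held for Iigp1, with 18 of 29 and 28 of 50 UMIs in 1 cell. Irgm1 was more widely spread, with UMIs in 52 and 40 cells. The median of the list was 0.29 beside -0.05 over all genes, and Cd274 in the same cells was 129.8 and 168 CPM, a log2 ratio of 0.37 (0.21 to 0.54). Neutrophil-like cells had Cxcl9 (1.5 and 29.3 CPM), Iigp1 (1.1 and 18.8 CPM) and Irf8 (8.4 and 20.9 CPM) higher and Cxcl10 (118 and 44.0 CPM) lower, of 19 considered, where 2.34% and 2.49% of genes were. Of the 56 Cxcl9 UMIs behind the higher value, 52 lay in 1 cell, and of the 310 Cxcl10 UMIs of the library labelled vehicle 114 did. The 36 Iigp1 UMIs lay in 4 cells, 19 of them in 1. In epithelial-like cells 14 of 22 were considered and none was apart, where 0.62% of genes were higher and 1.42% lower, with a median of -0.12 beside -0.04 over all genes.

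Among 21 other ligands, Nectin3, a further nectin that TIGIT can bind, was higher in 4 classes of antigen-presenting and phagocytic cells, where from 0.251% of genes (alveolar macrophage-like) and 0.549% (C1q macrophage-like) to 3.07% (mature dendritic cell-like) were higher. Its level was 73.9 and 218 CPM in cDC2-like cells, 57.2 and 132 CPM in C1q macrophage-like cells, 22.5 and 61.2 CPM in alveolar macrophage-like cells and 18.7 and 66.8 CPM in mature dendritic cell-like cells. From 34 to 1165 UMIs lay behind the values of the library labelled vehicle, and no cell of either library held more than 37. It was also higher in gamma-delta T17-like cells (0 and 18 UMIs, in 5 cells) and lower in regulatory T cell-like cells (11 and 0 UMIs). In mature dendritic cell-like cells Lgals9 (11 and 23.7 CPM, from 20 and 32 UMIs) and Cd70, the ligand of CD27 (14.8 and 32.6 CPM, from 27 and 44 UMIs), were higher as well, with 10 of the 32 and 10 of the 44 UMIs in 1 cell. Markers of C1q macrophages summed to 483 and 1816 CPM in this class, with 8 of 8 detected in both libraries. Those of alveolar macrophages went the other way, at 776 and 330 CPM, and those of cDC2 were at 707 and 625 CPM. The part of these markers in these values, Nectin3 included, was not tested. In epithelial-like cells 13 of the 21 ligands were considered and none was apart, Pvr, the main ligand of TIGIT, standing at 60.5 and 48.2 CPM.

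Genes with the most similar pattern were taken by Pearson correlation of log2(CPM + 1) over 32 points, the 16 classes in each of the 2 libraries. The points of a class share its makeup and each library its depth, so r is a description. Ctla4 was most like Icos (r = 0.94), the costimulatory receptor, then Ubash3a (0.93) and Pglyrp2 (0.92). For Tigit the nearest were Tnfsf11 (0.95), Ndfip1 (0.95) and Cxcr6 (0.95), and for Pdcd1 Arnt2 (0.93), Tigit (0.92) and B4galnt4 (0.92). Cd274 was nearest to Glipr2 (0.91), Snx20 (0.87) and Pdcd1lg2 (0.86), and Pdcd1lg2 to Tank (0.89), Cd274 (0.86) and Glipr2 (0.85). Havcr2 was nearest to Pilra (0.86), Tnf (0.85) and Nlrp3 (0.85), all known from myeloid cells, Cd80 to Ehd1 (0.90), Nod2 (0.87) and Pla1a (0.86), and Cd86 to Irf5 (0.85), Rel (0.85) and Fcgr2b (0.84). Nectin2 was nearest to Stap2, Nhsl1 and Rerg (each 0.88). Lag3 had the loosest matches, Exosc4 (0.79), Ostc (0.79) and Mvb12a (0.77).

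The other 8 genes lie at these places in GRCm38 (GENCODE M21). Pdcd1 is at chr1:94038305-94052553 on the minus strand and Ctla4 at chr1:60887000-60915832 on the plus strand. Havcr2 is at chr11:46454935-46481255 (plus), Lag3 at chr6:124904361-124911705 (minus) and Nectin2 at chr7:19716644-19750483 (minus). Chromosome 16 holds 3 of them: Cd86 at chr16:36603869-36666081 (minus), Cd80 at chr16:38455561-38496335 (plus) and Tigit at chr16:43648867-43664146 (minus).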

How the data were processed

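Single-cell RNA was measured in 4 droplet libraries (10x Genomics 3′ chemistry, version 3, per the labels' protocols). The values the authors deposited are raw UMI counts for each feature in each barcode. The matrices were written by Cell Ranger 7.0.1 per the file headers, while the submitters' processing notes name Cell Ranger 7.2.0 and mm10. The annotation release and the use of intronic reads are not given in the sources used here.

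Barcodes with fewer than 200 genes or more than 20% of UMIs from mitochondrial genes were dropped, and doublet scores came from Scrublet in scanpy 1.11.5 (expected rate 0.06). Its automatic threshold called 188, 1, 1 and 0 cells in the libraries vehicle and tamoxifen before and vehicle and tamoxifen after depletion, so it had not worked in 3 of them, and a fixed score of 0.25 removed 225, 116, 120 and 153. Cells were clustered together without batch correction (2000 variable genes without the 10 genes and the 5 lists, 40 components, 15 neighbours, Leiden resolution 1 with igraph 0.11.9), and lymphoid, monocyte and stromal clusters were sub-clustered. A name needed 3 markers each in 10% of a cluster's cells and at least 20 cells, and clusters with epithelial markers beside another lineage's were set aside, a choice made after seeing the data, as was keeping cycling T cells apart. Unnamed cells were 2.78% and 2.81% of the kept pre-depletion cells.

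UMIs were summed per class and library and given as CPM. Log2 ratios used a pseudocount of 1 CPM, and a pair was considered at 10 CPM and 10 UMIs in either library and counted at 2-fold, a rule of size and not a test. The 10 genes are named in every class. Of the 5 lists, genes at 10 CPM or more in the class were eligible to be named, and the 3 most alike genes were taken for each gene. The rule was tried on simulated class sums with Poisson counting error and planted changes larger than 2-fold. Spread between cells was not simulated, so this does not cover counts that rest on single cells. Promoter sequences are those of RefSeq (GRCm38.p6), where 8 of the 10 genes matched by symbol, and positions are from GENCODE M21. The genes and lists were chosen with earlier results of these data known. Alternatives (TMM scaling by edgeR 4.0.16 and median-of-ratios scaling among them) are given in the closing section. One further allele of the mice is not reported here.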

Additional observations from a re-analysis of the deposited data

Results flagged for a closer look

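The ratio of the library labelled tamoxifen over that labelled vehicle had opposite signs, each past 2-fold, in different classes for Havcr2 and Cd80. These differences between classes were not tested, since each group has 1 library. Havcr2 had a log2 ratio of 2.06 in gamma-delta T17-like cells, against -1.94 in endothelial-like cells and -3.89 in regulatory T cell-like cells, where the last value depends on the pseudocount because no UMI was found in the library labelled tamoxifen. Cd80 had 2.21 in gamma-delta T17-like cells and 2.81 in naive T cell-like cells, against -2.20 in endothelial-like cells and -1.07 in regulatory T cell-like cells. All but the last of these rest on 0 to 57 UMIs per library.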

How the results depend on the processing

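With 4 pairs of gene and class at least 2-fold higher and 9 lower in the library labelled tamoxifen, the mean over cells gave 6 and 4, no minimum level 14 and 16 (it admits pairs of a few UMIs), and a 4-fold rule 3 and 3. TMM and median-of-ratios scaling each gave 4 and 7, no doublet removal 5 and 13, and the gate on each T cell 5 and 8. The gate turned Havcr2 in regulatory T cell-like cells to a log2 ratio of 0.31 and Lag3 in CD8 T cell-like cells to -0.50, and the cause was not tested. Of the 88 pairs, 59 stayed within their counting interval under every alternative run that gave them a value. Of the 13 counted pairs, 4 stayed past 2-fold under every alternative run that gave them a value. They were Cd80 in endothelial-like, regulatory T cell-like and naive T cell-like cells, and Nectin2 in neutrophil-like cells. Without the cell of most UMIs of the gene in each library, Cd80 in naive T cell-like cells fell to 1 UMI (0.77 CPM, vehicle) and 6 UMIs (7.2 CPM, tamoxifen). Nectin2 in neutrophil-like cells fell to 21 UMIs (8.1 CPM) and 1 UMI (0.53 CPM). Neither pair then reached the minimum level, while Cd80 in endothelial-like and regulatory T cell-like cells still did. Of the other 75 pairs, 12 passed 2-fold under at least 1 alternative. These include Pdcd1 in mature dendritic cell-like cells (1.07 with the mean over cells) and Cd274 in endothelial-like cells (1.0 without doublet removal) and NK cell-like cells (-1.54 at Leiden resolution 2). The post-depletion libraries were not among these alternatives, and their endothelial-like cells held no Cd80 UMI. The share of CD8 T cell-like cells with UMIs of at least 2 of Pdcd1, Lag3, Tigit and Havcr2 follows the depth kept: 24.8% and 25% without thinning, 8.82% and 8.59% at 2000 UMIs, and 1.91% and 5.29% at 1000 UMIs, for the libraries labelled vehicle and tamoxifen. The number of genes with the same highest class in both libraries, 7, became 9 with the mean over cells.

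Chosen after seeing the data, leaving out clusters led by cell cycle genes gave 4 and 8. Leaving out the Tox, Ikzf2 and Cd163l1 led gamma-delta sub-cluster gave 2 and 9, since the class then had too few cells to be compared. Leaving out the cell with most UMIs of the gene in each library gave 4 and 7, and moved Cd86 in endothelial-like cells from -1.65 to -0.04. No paired analysis was possible because each group has 1 library. Intervals cover counting error only, and pairs near 10 UMIs have intervals wide enough to include 0 at 2-fold, as for Klrg1 in CD8 T cell-like cells.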
